A study of Mus musculus with 2 samples.

Results

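The variable (V) segments of the T-cell receptor genes were followed in 2 single-cell RNA libraries of immune cells from mouse melanomas. The segments were all listed genes whose symbols start with Trav (alpha chain), Trbv (beta chain), Trdv (delta chain) or Tcrg-V (gamma chain), which gave 175 of 32285 genes: 128 Trav, 35 Trbv, 6 Trdv and 6 Tcrg-V. Both libraries came from wild-type mice bearing tumors of B16-F10, a mouse melanoma line, and held CD45+ cells, the leukocytes, sorted from the tumors. The Control mice received vehicle and the DOPAC mice received DOPAC (dihydroxyphenylacetic acid, a catechol breakdown product of dopamine), with 4 mice in each group and 1 library per group. The labels give neither dose, route nor age, the mice of a group carry no tags, and the labels' dissociation protocol speaks of colon although the tissue is labelled tumor. With 1 library per treatment there is no test between treatments. The intervals given are 95% intervals for counting error only, and differences between mice, libraries and treatments cannot be told apart.

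Each T cell makes its receptor from 1 rearranged alpha and 1 rearranged beta chain (or gamma and delta chains), and each chain carries 1 of many V segments joined to a short junction that is made anew in every developing cell. A mature cell passes its rearranged chains to all of its daughters. In a polyclonal population many V segments are therefore used side by side, and the use of V segments is a coarse readout of the receptor repertoire. The junction, which tells clones apart, was not read here. Barcodes with the same V segments thus share V segments, and whether they belong to the same clone was not tested.

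T barcodes were kept barcodes with at least 1 unique molecular identifier (UMI, a count of 1 captured RNA molecule) of Cd3d, Cd3e or Cd3g, which encode the CD3 chains of the receptor complex. There were 2699 of 8105 kept barcodes in Control and 5914 of 9280 in DOPAC, with medians of 7973 and 4063 UMIs per barcode. Within them, a UMI of Cd8a or Cd8b1 defined 894 Cd8-positive barcodes in Control and 3835 in DOPAC. Cd4 defined 355 and 198 barcodes, Foxp3, the transcription factor of regulatory T cells, 186 and 110, and Lef1, a transcription factor of naive and memory-like T cells, 1558 and 1163. The groups overlap: in DOPAC 64 of 198 Cd4-positive and 37 of 110 Foxp3-positive barcodes also held Cd8 UMIs. A UMI of Trac, the alpha constant gene, was present in 80.9% of Cd8-positive barcodes in Control and 80.0% in DOPAC. Markers of other cells were present as well: all 6 macrophage markers were detected in Cd8-positive barcodes, at 16.4 (Adgre1) to 715 (Lyz2) CPM (UMIs of a gene scaled to an equal total for every group) and 1169 CPM in sum in Control, and at 11.5 to 254 CPM and 424 CPM in sum in DOPAC. Ncr1, a marker of natural killer (NK) cells, was found in 147 of the T barcodes in Control and 122 in DOPAC. The libraries shared 32 cell barcodes.

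The results below turn on 6 segments, of which the exon that encodes most of the V domain is shown so that they can be compared. All 175 segments matched the GENCODE M21 annotation of the GRCm38 build, 141 as V genes and 34 as V pseudogenes. The Trbv segments lie on chromosome 6, Trav and Trdv on chromosome 14 and Tcrg-V on chromosome 13, and none of the 6 shown overlaps another annotated gene. Each sequence is read 5′ to 3′ on the plus strand, in lower case, with the last in-frame cysteine codon in capitals. This cysteine is the conserved residue at which the junction begins. The 3 beta segments are Trbv2 (exon chr6:41047701-41047995), Trbv12-2 (exon chr6:41119072-41119364) and Trbv12-1 (exon chr6:41113775-41114067). The alpha segments are Trav13-1 (exon chr14:53545247-53545525), Trav4-2 (exon chr14:53418595-53418873) and Trav14d-3-dv8 (last 300 bases of the exon, chr14:53078746-53079045).
Trbv2: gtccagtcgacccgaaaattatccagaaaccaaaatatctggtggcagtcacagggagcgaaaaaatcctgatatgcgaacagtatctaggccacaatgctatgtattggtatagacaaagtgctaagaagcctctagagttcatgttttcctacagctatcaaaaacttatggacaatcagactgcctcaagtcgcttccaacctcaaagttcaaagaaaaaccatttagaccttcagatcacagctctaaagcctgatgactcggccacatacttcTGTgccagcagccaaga
Trbv12-2: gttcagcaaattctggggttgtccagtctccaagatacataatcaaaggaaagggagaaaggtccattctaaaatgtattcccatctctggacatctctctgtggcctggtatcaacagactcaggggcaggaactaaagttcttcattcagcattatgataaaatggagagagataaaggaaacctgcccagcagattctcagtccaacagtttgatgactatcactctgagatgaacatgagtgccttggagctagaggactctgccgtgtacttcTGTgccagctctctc
Trbv12-1: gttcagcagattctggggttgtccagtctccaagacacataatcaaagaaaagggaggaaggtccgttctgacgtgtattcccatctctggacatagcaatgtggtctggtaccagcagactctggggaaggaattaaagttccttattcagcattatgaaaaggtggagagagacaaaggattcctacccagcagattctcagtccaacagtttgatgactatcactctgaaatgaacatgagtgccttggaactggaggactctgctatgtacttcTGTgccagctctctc
Trav13-1: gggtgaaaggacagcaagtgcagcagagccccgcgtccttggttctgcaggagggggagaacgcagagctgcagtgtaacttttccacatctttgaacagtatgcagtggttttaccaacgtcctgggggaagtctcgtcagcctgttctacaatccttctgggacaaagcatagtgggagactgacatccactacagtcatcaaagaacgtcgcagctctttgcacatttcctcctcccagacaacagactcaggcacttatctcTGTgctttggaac
Trav4-2: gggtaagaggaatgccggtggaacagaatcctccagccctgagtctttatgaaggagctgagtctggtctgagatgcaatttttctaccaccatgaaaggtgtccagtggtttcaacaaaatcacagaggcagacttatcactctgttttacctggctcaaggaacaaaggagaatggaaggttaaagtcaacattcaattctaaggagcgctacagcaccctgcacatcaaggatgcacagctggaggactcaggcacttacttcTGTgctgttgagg
Trav14d-3-dv8: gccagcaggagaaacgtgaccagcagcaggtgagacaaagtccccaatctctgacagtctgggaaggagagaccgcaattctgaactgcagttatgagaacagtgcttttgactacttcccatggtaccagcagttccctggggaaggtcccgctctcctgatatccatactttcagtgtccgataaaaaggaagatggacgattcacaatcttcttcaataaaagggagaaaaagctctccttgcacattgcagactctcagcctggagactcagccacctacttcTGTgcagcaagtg
Trbv12-2 and Trbv12-1 differ by 32 edits in this exon, and the segment closest to Trbv2, Trbv5, differs from it by 102. No Trbv segment with an annotated V exon (21 of 35) lies within 3 edits of another. The alpha locus differs in this respect, because a block of it is repeated in the mouse and the copies carry the letters d and n in their symbols. Of 98 Trav segments with such an exon, 47 lie within 3 edits of another and 22 are identical to another. The split of counts between near copies is uncertain. The identical copies Trav6-6 and Trav6d-6, and Trav9d-2 and Trav9n-2, had 0 UMIs in the T barcodes of both libraries, while Trav5n-4 had 1 in Control. Whether reads that match such copies equally were left uncounted was not tested. A count of 0 UMIs thus does not show that a copy is unused. Trav13-1 is 11 edits from Trav13d-1, Trav14d-3-dv8 is 8 from Trav14-3, Trav4-2 is 40 from its closest neighbour Trav4-4-dv10, and Trav7-4 is 1 from Trav7d-4.

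Of the 175 segments, 91 had a UMI in the T barcodes of Control and 91 in those of DOPAC, and 70 had none in either library. The 70 include identical Trav copies such as Trav6-6, so not all of them are known to be unused. By family, 62 Trav, 20 Trbv, 4 Trdv and 5 Tcrg-V segments were seen in Control and 60, 22, 4 and 5 in DOPAC. The segments summed to 904 UMIs in Control and 1315 in DOPAC, so they are sparse readouts. A Trbv UMI was found in 17.1% of Cd8-positive barcodes in Control (95% interval 14.7 to 19.7) and 15.5% in DOPAC (14.4 to 16.7). It was found in 0.242% of macrophage barcodes without Cd3 UMIs in Control (7 of 2888, median 12893 UMIs) and 0.433% in DOPAC (4 of 924, median 4202.5 UMIs), so the share in Cd8-positive barcodes was far above that in cells that should lack the gene. Each barcode was assigned to the segment with the most UMIs, and ties were left out. In 82.7% of the Control and 84.2% of the DOPAC T barcodes with a Trbv UMI the assignment rests on 1 UMI, and several Trbv segments occurred in 7.35% and 3.10% of them. Among T barcodes with a Trav UMI, 76.5% in Control and 90.4% in DOPAC held 1 UMI, so the libraries differ more for Trav.

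Thinned to equal depth, a larger share of all T barcodes held a Trbv UMI in DOPAC. When each barcode was thinned to 1000 UMIs, the share over all T barcodes was 1.15% in Control and 2.45% in DOPAC, a difference of 1.30 points (0.70 to 1.85). In Lef1-positive barcodes it was 1.48% and 2.95%, a difference of 1.47 points (0.37 to 2.72). In Cd8-positive barcodes it was 2.02% (18 of 893) and 3.16% (120 of 3799), and the interval of the difference of 1.14 points ran from -0.11 to 2.10. The intervals in Cd4-positive (difference 1.78 points, -0.03 to 4.91) and Foxp3-positive barcodes (0.93 points, -1.24 to 5.06) also held 0. Thinning left out 9 T barcodes in Control and 123 in DOPAC. Without thinning, the Lef1 difference was -0.67 points (-3.22 to 1.95), so its direction rests on the thinning, and all 4 group differences were then below 0 with intervals that held 0. Over all T barcodes the unthinned difference was 1.39 points (-0.04 to 2.75). The makeup of the T barcodes also differed, with 33.1% Cd8-positive in Control and 64.8% in DOPAC. Its part in the differences over all T barcodes was not tested.

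Trbv2 was the beta segment of most assigned Cd8-positive barcodes in DOPAC and a minor one in Control. It took 336 of 583 assigned barcodes in DOPAC, 57.6% (53.5 to 61.7), and 8 of 143 in Control, 5.59% (2.45 to 10.7). The difference was 52.0 points (45.6 to 56.8), and the 2 intervals lie far apart. Trbv12-2 led in Control with 32 of 143 barcodes, 22.4% (15.8 to 30.1), and was the next most used segment in DOPAC with 53 of 583, 9.09% (6.88 to 11.7). Trbv12-1 had 16 barcodes in Control, 11.2%, and 3 in DOPAC, 0.515%, a difference of -10.7 points (-16.9 to -6.38). Because the shares of a library add up to the whole, a large share of 1 segment lowers all others.

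**Figure D1:**
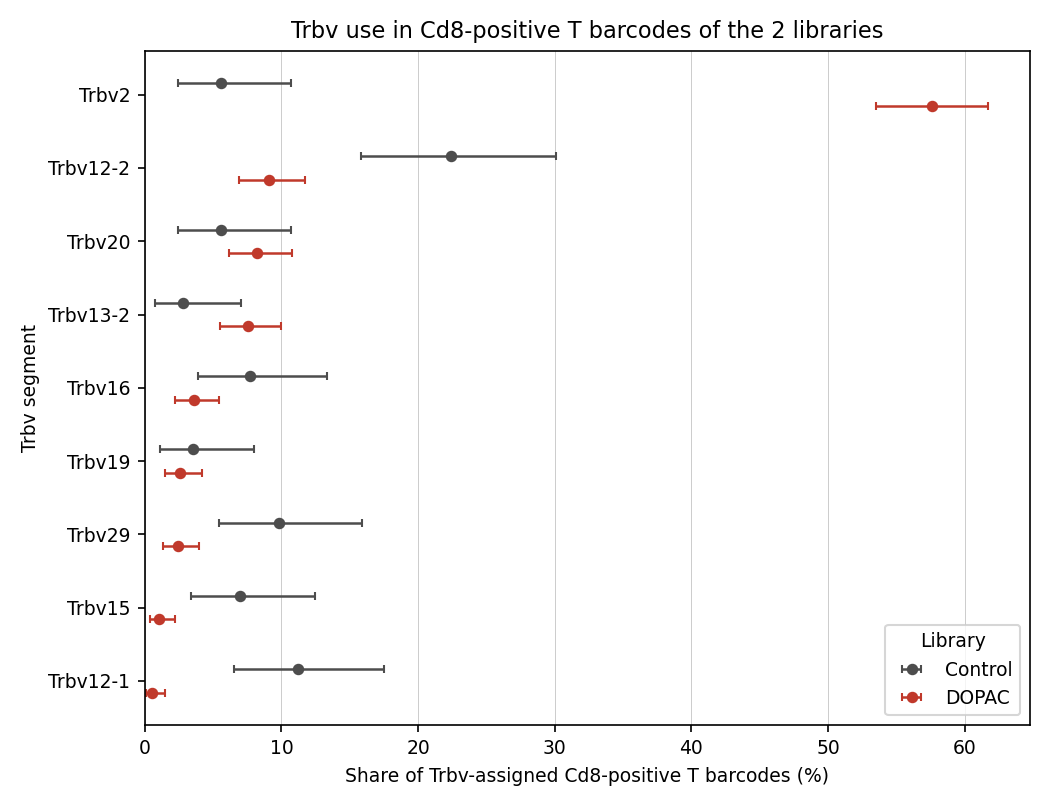
Share of Trbv-assigned Cd8-positive T barcodes (x axis, percent) for the Trbv segments that were among the 5 most used of a library or had at least 20 assigned barcodes over both (y axis); points are shares, bars exact 95% binomial intervals, grey Control (143 barcodes) and red DOPAC (583). Trbv2 stands at 57.6% in DOPAC and 5.59% in Control, and Trbv12-2 at 9.09% and 22.4%.

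The other much-used beta segments moved by smaller amounts. Trbv29 had 14 barcodes in each library, 9.79% in Control and 2.40% in DOPAC (difference -7.39 points, -13.4 to -3.21). Trbv15 went from 6.99% to 1.03% and Trbv16 from 7.69% to 3.602%. With at least 2 UMIs required, which left few barcodes, Trbv29 was at 0% in both libraries, and Trbv16 was at 0% in Control and 1.19% in DOPAC, so both differences rest on single UMIs. Trbv13-2 was higher in DOPAC, with 4 of 143 barcodes (2.80%) in Control and 44 of 583 (7.55%) in DOPAC, a difference of 4.75 points (0.17 to 7.72). For Trbv20 (5.59% and 8.23%, difference 2.64 points, -2.79 to 6.35) and Trbv19 (3.50% and 2.57%) the intervals of the difference held 0. Setting Trbv2 aside left 247 barcodes in DOPAC and 135 in Control. The distance between the libraries, taken as the summed absolute difference in shares divided by 2, was then 38.3 points, against 61.5 points with Trbv2. Sampling adds to such a distance, which has no interval here, so not all of it is a difference in use. Between Cd8-positive barcodes and T barcodes without Cd8 UMIs of the same library it was 26.3 points in Control and 40.2 points in DOPAC, with Trbv2 included. The order of segments within a library was not corrected for how well each is captured, and annotated Trbv transcripts range from 332 bases for Trbv30 to 566 for Trbv19, with 560 for Trbv2, so shares are compared between libraries for the same segment.

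The level of the V segments needs no assignment of barcodes. Trbv2 had 417 UMIs in the Cd8-positive barcodes of DOPAC, 18.4 CPM (16.7 to 20.3), and 10 in those of Control, 0.982 CPM (0.471 to 1.81), an 18.8-fold difference (10.1 to 39.5). Trbv12-1 was 12.2-fold lower in DOPAC (4.15 to 48.7) and Trbv15 3.89-fold lower (1.52 to 10.7). Trav14d-3-dv8 was 4.65-fold higher (2.02 to 13.2), Trav13-1 3.43-fold (1.64 to 8.31), Trav6n-6 3.45-fold (1.04 to 18.0, from 3 UMIs in Control), Trbv13-2 3.04-fold (1.44 to 7.40) and Trbv20 2.33-fold (1.21 to 4.94). Trbv29 was 2.37-fold lower (1.10 to 5.14). Trbv12-2, which lost 13.3 points of share, was 1.48-fold lower in level with an interval that reached 1 (0.98 to 2.22). Of the 175 segments 13 had at least 20 UMIs in the 2 Cd8-positive sums together, and of these 6 were at least 1.5-fold higher and 3 at least 1.5-fold lower in DOPAC. Over all 13544 genes that passed the same minimum, 12.4% were higher and 27.8% lower by that measure, with a median log2 difference of -0.16. A segment with few UMIs in Control passed the minimum through DOPAC alone, so these counts describe the 13 and not the 175.

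The evenness of Trbv use was lower in DOPAC in each group large enough to give it. It is expressed as the effective number, the inverse of the chance that 2 barcodes drawn without replacement carry the same segment, which equals the number of segments when all are used equally. In Cd8-positive barcodes it was 10.8 (8.36 to 14.0) in Control and 2.81 (2.50 to 3.16) in DOPAC. In Lef1-positive barcodes it was 9.95 (7.86 to 12.6) and 4.62 (3.46 to 6.16), and over all T barcodes 9.23 (7.41 to 11.5) and 3.18 (2.83 to 3.58). None of these 3 pairs of intervals overlapped. At 143 barcodes per library, 19 different segments were seen in the Cd8-positive group of Control and 13.9 were expected in that of DOPAC.

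**Figure D2:**
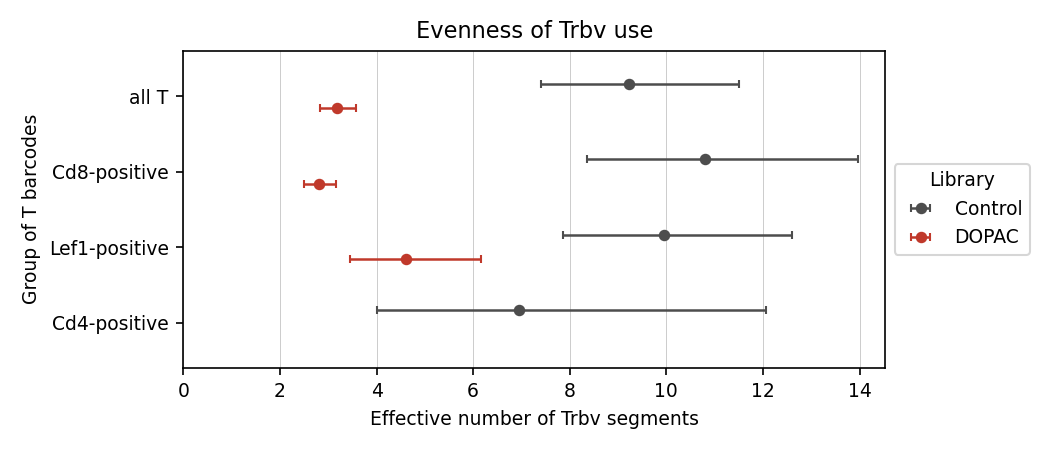
Effective number of Trbv segments (x axis) in groups of T barcodes (y axis) with at least 30 assigned barcodes; points are estimates, bars 95% delta-method intervals, grey Control and red DOPAC. DOPAC lies between 2.81 and 4.62, and Control between 6.95 and 10.8, with no Cd4-positive value for DOPAC, where 17 barcodes were assigned.

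The gap in evenness was smaller without Trbv2, which is in part built into the comparison. Trbv2 was chosen for this after it was seen to lead in DOPAC. Setting aside the leading segment of DOPAC raises the effective number there, while Control kept its own leading segment. The values below therefore describe the remaining barcodes, and neither the narrowing nor a turned order is a test of what made the gap. With Trbv2 barcodes set aside, the effective number in Cd8-positive barcodes was 9.92 (7.64 to 12.9) in Control and 7.55 (6.55 to 8.70) in DOPAC, and the intervals overlapped. In Lef1-positive barcodes the order turned, with 9.30 (7.34 to 11.8) in Control and 12.0 (8.80 to 16.3) in DOPAC, again with overlapping intervals.

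Within DOPAC, the Trbv2 share differed between kinds of T barcode. It was 57.6% in Cd8-positive barcodes and 25.3% (20 of 79) in T barcodes without Cd8 UMIs, a difference of 32.3 points (20.99 to 41.5). Among Cd8-positive barcodes it was 61.5% (287 of 467) in those with a UMI of Pdcd1 or Havcr2, inhibitory checkpoint receptors, and 42.2% (49 of 116) in those without, a difference of 19.2 points (9.07 to 28.8). The median depths of these gates were 5722 and 3364 UMIs. Cycling barcodes, with at least 2 UMIs of Mki67 or Top2a, stood at 56.3%. Those with Gzmc or Gzmf, granzymes of strongly activated killer cells, stood at 59.0%, and those with Gzmk at 58.4%. Trbv2 was less used in Cd8-positive barcodes with Tcf7, the transcription factor of naive and stem-like T cells, at 7 of 32 barcodes or 21.9% (9.28 to 40.0). It took 11 of 30 barcodes or 36.7% (19.9 to 56.1) in those with Ccl1 or Tnfsf11. With or without Lef1, the share was 53.6% and 58.6% (difference -4.93 points, -15.2 to 5.17).

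**Figure D3:**
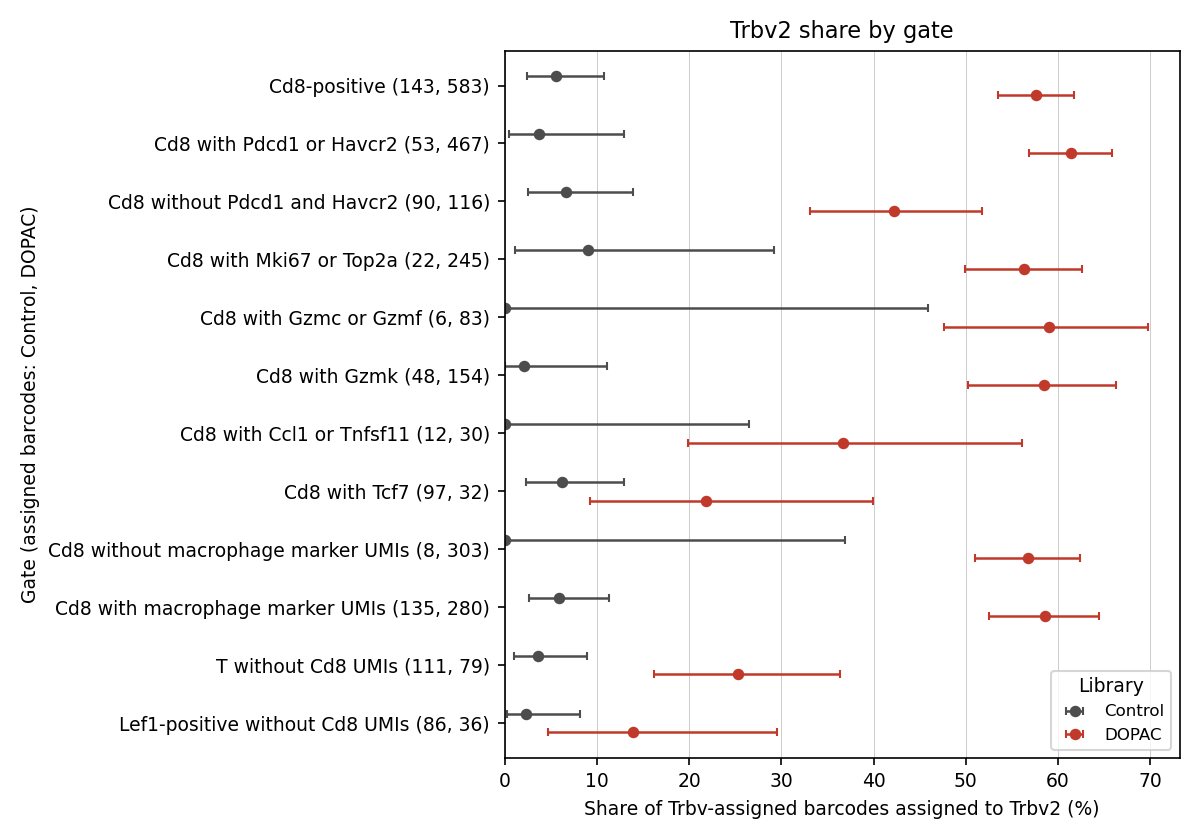
Trbv2 share of Trbv-assigned barcodes (x axis, percent) in gates of T barcodes (y axis, with the number of assigned barcodes in Control and DOPAC); points are shares and bars exact 95% binomial intervals, grey Control and red DOPAC. The DOPAC shares run from 13.9% in Lef1-positive barcodes without Cd8 UMIs to 61.5% in Cd8-positive barcodes with Pdcd1 or Havcr2, and the Control shares from 0% to 9.09%.

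In Control the highest Trbv2 share of these gates was 9.09%, in 2 of 22 cycling barcodes. Trbv2 took 2 of 53 Cd8-positive barcodes with Pdcd1 or Havcr2, 3.77% (0.460 to 13.0), 1 of 48 with Gzmk and 6 of 97 with Tcf7. The intervals of the libraries overlapped in the gates with Tcf7 and with Ccl1 or Tnfsf11. The share in DOPAC was nearly the same in Cd8-positive barcodes with macrophage marker UMIs, 58.6% (164 of 280), and without them, 56.8% (172 of 303). In Control just 8 assigned Cd8-positive barcodes lacked such UMIs, none of them with Trbv2, which allows a share of up to 37.5%.

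The Cd4-positive and Foxp3-positive groups held few assigned barcodes. In Control, Trbv12-2 led the Cd4-positive group with 16 of 46 barcodes, 34.8% (21.4 to 50.2), followed by Trbv20 with 5 and Trbv19 with 4. The effective number there was 6.95 (4.00 to 12.1). In DOPAC, Trbv2 led with 8 of 17, 47.1% (23.0 to 72.2), and 5 of those 8 also held Cd8 UMIs, which left 3 of 7 Cd4-positive barcodes without Cd8 UMIs. In the Foxp3-positive group Trbv13-2 led in Control with 4 of 17 barcodes, ahead of Trbv12-2 and Trbv20 with 3 each, and Trbv2 led in DOPAC with 5 of 9. Without Cd8 UMIs, 1 of 3 Foxp3-positive barcodes of DOPAC carried Trbv2. No evenness is given for these groups of DOPAC.

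In Lef1-positive barcodes Trbv2 took 64 of 146 in DOPAC, 43.8% (35.6 to 52.3), and 8 of 199 in Control, 4.02% (1.75 to 7.77). Trbv12-2 led in Control with 49 of 199, 24.6%, against 15 of 146, 10.3%, in DOPAC, and Trbv12-1 had 24 and 3 barcodes. The 2 Lef1 groups differed in their makeup: 670 of 1558 barcodes in Control and 666 of 1163 in DOPAC also held Cd8 UMIs. Where they did not, the Trbv2 share of DOPAC was 13.9% (5 of 36, 4.67 to 29.5) and that of Control 2.33% (2 of 86, 0.283 to 8.15), and these intervals overlapped.

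Alpha segments were also used less evenly in the Cd8-positive barcodes of DOPAC, with a different set in the lead. Trav13-1 took 54 of 286 assigned barcodes in DOPAC, 18.9% (14.5 to 23.9), and 5 of 127 in Control, 3.94% (1.29 to 8.95), a difference of 14.9 points (8.51 to 20.4). Trav14d-3-dv8 took 52 barcodes in DOPAC, 18.2% (13.9 to 23.1), and 5 in Control, 3.94%, a difference of 14.2 points (7.86 to 19.6). Trav6n-6 had 18 barcodes in DOPAC, 6.29%, and 1 in Control. Trav4-2 had 16 barcodes in DOPAC, 5.59% (3.23 to 8.93), and none in Control, which allows a share of up to 2.36%. With at least 2 UMIs required for an assignment, Trav4-2 had no barcode in DOPAC either, so its share rests on single UMIs. Trav7-4 had 15 and 2.

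In Control no alpha segment stood out. Trav8d-2 led with 8 of 127 barcodes, 6.30% (2.76 to 12.0), followed by Trav3-3 and Trav16 with 7 each and Trav9n-4 and Trav6-7-dv9 with 6 each. In DOPAC Trav8d-2 had 4 of 286, 1.40%, and Trav9n-4 none. The effective number of Trav segments was 42.8 (33.3 to 55.0) in Control and 11.7 (9.52 to 14.4) in DOPAC. With the d and n copies joined, which turned 128 symbols into 57, it was 26.6 (20.6 to 34.3) and 9.07 (7.55 to 10.9). Joining adds up only the UMIs that were counted. In the joined counts Trav13-1 took 65 of the 286 DOPAC barcodes, 22.7%, and 5 of the 127 in Control, 3.94%. Trav14-3, which takes in Trav14d-3-dv8, took 56 in DOPAC, 19.6% (15.1 to 24.7), and 9 in Control, 7.09% (3.29 to 13.0), so its gap between the libraries was smaller than for the unjoined segment.

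**Figure D4:**
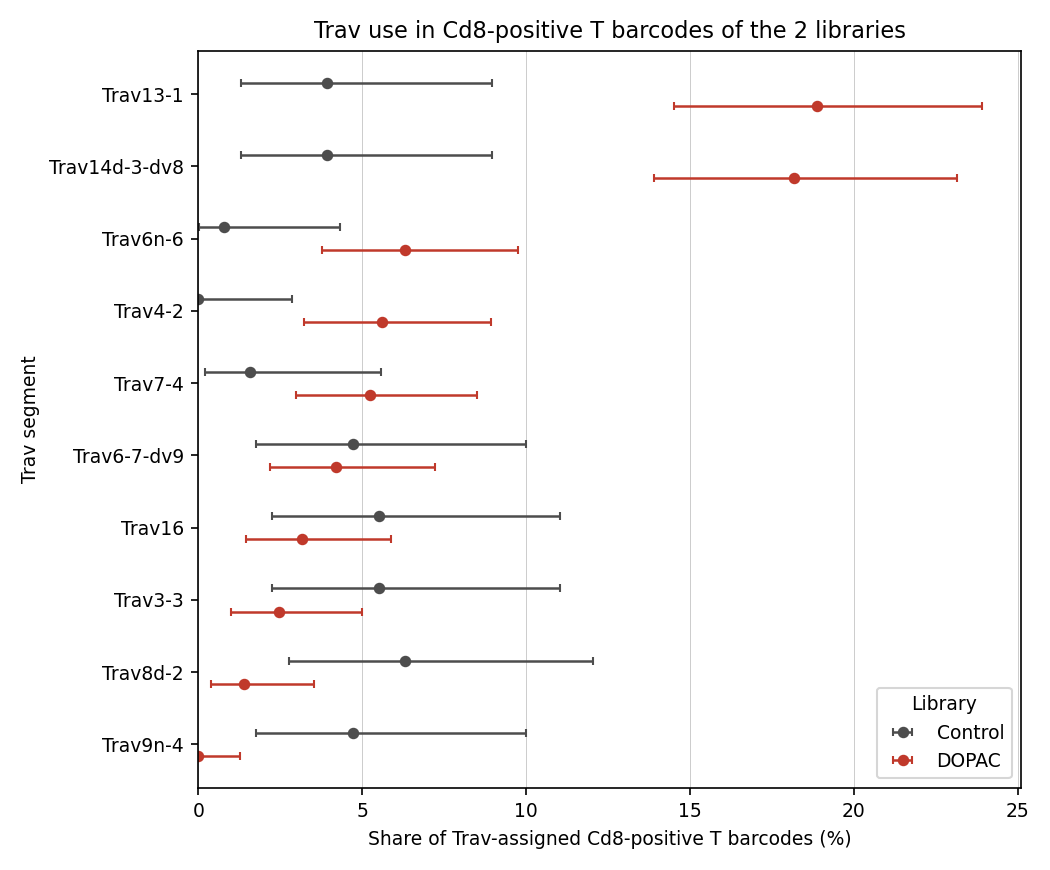
Share of Trav-assigned Cd8-positive T barcodes (x axis, percent) for the Trav segments among the 5 most used of a library, with at least 5 barcodes over both (y axis); points are shares, bars exact 95% binomial intervals, grey Control (127 barcodes) and red DOPAC (286). Trav13-1 and Trav14d-3-dv8 reach 18.9% and 18.2% in DOPAC and are both at 3.94% in Control.

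In the other groups, which overlap with the Cd8-positive group, the leading alpha segments differed in part. In Control Trav10 led the Cd4-positive group with 8 of 72 barcodes, 11.1% (4.92 to 20.7), and the Foxp3-positive group with 7 of 43, 16.3% (6.81 to 30.7). Trav14n-3 and Trav14d-3-dv8 followed in the Cd4-positive group with 6 each. In DOPAC Trav5-1 led the Cd4-positive group with 3 of 26, and in the Foxp3-positive group Trav10, Trav14d-3-dv8, Trav13n-1 and Trav6-5 tied at 2 of 17. In Lef1-positive barcodes Trav6-7-dv9 led in Control with 13 of 229 and, as in the Cd8-positive group, Trav13-1 in DOPAC with 10 of 78. Trav14d-3-dv8 had 11 and 8 barcodes there.

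Both an alpha and a beta segment were assigned in 24 Cd8-positive barcodes of Control and 59 of DOPAC. The 24 pairs of Control were all different, and none held Trbv2. The 59 barcodes of DOPAC fell into 34 pairs, 7 of which occurred more than once, and 28 barcodes held Trbv2. Trav13-1 with Trbv2 and Trav4-2 with Trbv2 occurred in 10 barcodes each, 16.9% of the paired barcodes (8.44 to 29.0). The product of the separate shares of the 2 segments gives 6.64 and 4.75 barcodes, and a preferred pairing was not tested. Trav12-2 with Trbv13-2 and Trav7-4 with Trbv2 followed with 3 barcodes each. The chance that 2 paired barcodes drawn without replacement share their pair was 5.79% in the Cd8-positive group of DOPAC. Over all T barcodes it was 0.245% in Control (50 paired) and 4.76% in DOPAC (65 paired).

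**Figure D5:**
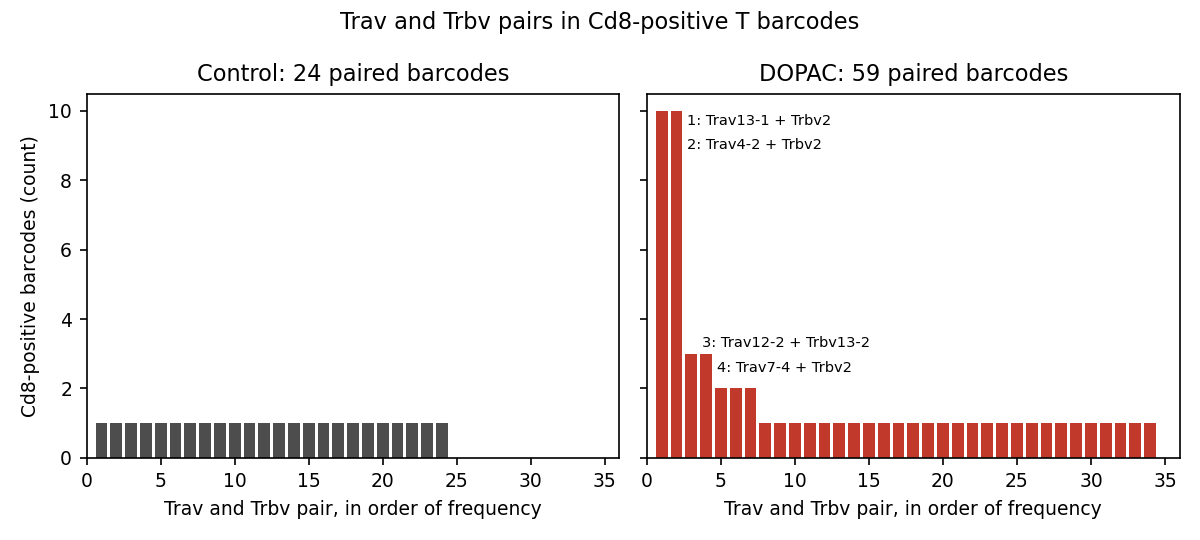
Number of Cd8-positive barcodes (y axis) with each Trav and Trbv pair, ordered by frequency (x axis), in Control (left, 24 paired barcodes) and DOPAC (right, 59 paired barcodes); each bar is 1 pair and the 4 most frequent DOPAC pairs are named. Every Control pair was seen once, and 2 DOPAC pairs, both with Trbv2, were seen 10 times each.

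The alpha segments that led in DOPAC differed in their beta partner. All 10 Trav4-2 barcodes with an assigned beta segment carried Trbv2 (lower bound 69.2%), as did 10 of 14 Trav13-1 barcodes, 71.4% (41.9 to 91.6). None of the 6 paired Trav14d-3-dv8 barcodes carried it (3 counts allow up to 50%), and no beta segment was detected in the 18 Trav6n-6 barcodes. Over all paired Cd8-positive barcodes of DOPAC the Trbv2 share was 47.5% (34.3 to 60.9), an interval that overlapped that of Trav13-1. No Cd8-positive barcode of DOPAC held UMIs of both Trav4-2 and Trav13-1, out of 16 and 56 that held them. With a Trav UMI in 7.67% of these barcodes, an overlap would be rare even in cells with both. Its absence therefore does not show that the 2 segments lie in separate cells. In Control 0 of 24 paired Cd8-positive barcodes carried Trbv2, which allows a share of up to 12.5%.

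The beta constant gene offers a further description of these barcodes, since a rearranged beta chain is joined to Trbc1 or Trbc2. The 2 genes are near-identical copies, so how their reads were split is uncertain. The intervals of the Trbc1 shares treat UMIs as separate draws, although the UMIs of 1 barcode are linked. They are therefore too narrow for comparing segments. Trbc1 made up 37.4% (36.9 to 37.98) of the Trbc UMIs of all Cd8-positive barcodes in DOPAC and 41.8% (40.1 to 43.5) of those in Trbv2 barcodes. It made up 52.4% (49.0 to 55.8) in Trav13-1 barcodes and 49.4% (43.3 to 55.6) in Trav4-2 barcodes. It made up 22.1% (18.9 to 25.6) in Trav14d-3-dv8 barcodes and 1.47% (0.304 to 4.24) in Trav6n-6 barcodes. Both genes were detected in all 10 barcodes of the pair Trav13-1 with Trbv2 and in all 10 of Trav4-2 with Trbv2, whereas 15 of 18 Trav6n-6 barcodes held Trbc2 alone. Among the 336 Trbv2 barcodes, 187 held both genes, 123 Trbc2 alone and 7 Trbc1 alone. Whether the second gene in a barcode came from the same cell was not tested.

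Within DOPAC, Cd8-positive barcodes with Trbv2 differed in some genes from those with another beta segment (336 against 247 barcodes, medians 6414.5 and 5722 UMIs). This compares barcodes of 1 library and has no test, and the genes named were chosen after their values were seen. Tcf7 was at 2.88 CPM (7 UMIs) with Trbv2 against 19.2 CPM (34 UMIs) with another segment, and Il7r, the interleukin-7 receptor chain, at 18.1 against 40.2 CPM. Lef1 was at 34.2 (27.2 to 42.4) against 42.4 CPM (33.4 to 53.2), with overlapping intervals. Xcl1, a chemokine that attracts cross-presenting dendritic cells, was at 42.0 against 222 CPM, and Tnfsf11, the cytokine RANKL, at 4.12 against 24.9 CPM. The other segments were mixed. Xcl1 was at 66.6 CPM with Trbv20, 140 CPM with Trbv12-2 and 346 CPM with Trbv13-2, and Il7r at 18.2, 29.9 and 61.0 CPM in that order. Trbv12-2 barcodes held 22 of the 44 Tnfsf11 UMIs of the other segments. Among genes of cell killing, Gzmb (1621 against 1058 CPM) and Prf1 (225 against 139 CPM) were higher with Trbv2, by 0.62 and 0.69 on the log2 scale. The intervals overlapped for Gzmc (35.0 against 33.9 CPM), Gzmk (60.6 against 57.1 CPM) and Gzmf (24.3 against 27.2 CPM). Areg, which encodes the growth factor amphiregulin, was at 174 against 42.4 CPM. Of the checkpoint receptors, Havcr2 was at 233 (214 to 253) against 178 CPM (159 to 198), with separate intervals, while those of Pdcd1 (174 against 160 CPM) and Lag3 (54.8 against 44.1 CPM) overlapped. The log2 differences were 0.39 for Havcr2, 0.30 for Lag3, 0.13 for Pdcd1, 0.17 for Tox, -0.12 for Mki67 and -0.17 for Top2a. Of 7041 genes with at least 50 UMIs, V segments left out, 3.35% were at least 1.5-fold higher and 3.24% at least 1.5-fold lower with Trbv2. The summed level of the 6 macrophage markers was 310 CPM with Trbv2 (7.41 to 203 CPM by gene, all detected) and 178 CPM without (3.39 to 122 CPM, all detected), and macrophage genes such as Msr1, C1qb and Spp1 were among those higher. Areg was at 92.9 CPM in macrophage barcodes without Cd3 UMIs, and the part of macrophage RNA in these differences was not tested.

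The same genes were read in barcodes of the leading alpha segments of DOPAC. Tcf7 had 1 UMI with Trav13-1, 1 with Trav14d-3-dv8, none with Trav6n-6 and 2 with Trav4-2, too few to order them. Xcl1 was at 72.5 CPM with Trav13-1, 58.7 CPM with Trav14d-3-dv8, 35.5 CPM with Trav6n-6 and 39.5 CPM with Trav4-2, below the 227 CPM of the whole group in each. Gzmb was at 1101 CPM with Trav13-1 and 1217 CPM with Trav4-2, near the 1148 CPM of the group, and at 1493 CPM with Trav14d-3-dv8 and 1905 CPM with Trav6n-6. The median depths were 6241 UMIs for Trav14d-3-dv8 to 7917.5 for Trav13-1, above the 4863 UMIs of the group, and Trav6n-6 and Trav4-2 rest on 18 and 16 barcodes.

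Tcrg-V and Trdv segments were found in a smaller share of T barcodes in DOPAC. Trgv2, a gamma V gene outside the 4 prefixes, is not counted here and went the other way. It had a UMI in 1.78% of T barcodes in Control (48 of 2699) and 3.58% in DOPAC (212 of 5914). The counts below thus do not describe gamma segments as a whole. A Tcrg-V or Trdv UMI occurred in 4.30% (3.56 to 5.13) of T barcodes in Control and 1.34% (1.06 to 1.66) in DOPAC. Tcrg-V alone occurred in 1.26% (34 of 2699) and 0.271% (16 of 5914). Trdv2-2 and Trdv4 were the segments with at least 20 UMIs, with 61 and 66 UMIs in Control and 20 and 42 in DOPAC. In Control 58 of the 66 Trdv4 UMIs lay in the 115 T barcodes with Trdc and a gamma constant gene, and 56 in the 115 T barcodes with Il17a or Cd163l1, genes of interleukin-17-producing gamma delta cells. In DOPAC 2 of its 42 UMIs lay in the 29 T barcodes with Trdc and a gamma constant gene, and 2 in the 40 with Il17a or Cd163l1. For Trdv2-2, 30 of 61 UMIs in Control lay in the 147 T barcodes with Ncr1, against 2 of 66 for Trdv4. In DOPAC the 122 T barcodes with Ncr1 held 1 of 20 Trdv2-2 UMIs and 9 of 42 Trdv4 UMIs, the opposite order. In barcodes with Ncr1 and no Cd3 UMI, which resemble NK cells, a Trdv UMI was found in 19.6% (93 of 474) in Control and 10.2% (24 of 236) in DOPAC, so a Trdv UMI alone does not mark a T barcode here. Of these barcodes, 77 held Trdv2-2 and 23 Trdv4 in Control, and 8 and 16 in DOPAC. The 2 libraries differ in depth, and thinned to 1000 UMIs the combined share was 0.632% (0.369 to 1.01) in Control and 0.414% (0.266 to 0.616) in DOPAC, with overlapping intervals.

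The alpha segments of 2 innate-like T-cell types had few UMIs. Trav11, used by invariant NK T cells, had 2 UMIs in Control and 1 in DOPAC. Trav11d had none in either library. Trav1, used by mucosal-associated invariant T cells, had 2 in Control and none in 5914 T barcodes of DOPAC, which allows a share of barcodes with a UMI of up to 0.0507%. Any Trav UMI was found in 11.0% of T barcodes in Control and 6.49% in DOPAC, so these counts do not bound the share of cells that use the segments.

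Genes of the receptor complex and its signaling moved less than Trbv2. Of a list of 25 receptor, signaling and recombination genes, 23 had at least 20 UMIs in the Cd8-positive sums, of which 3 were at least 1.5-fold higher and 6 at least 1.5-fold lower in DOPAC, with a median log2 difference of -0.21 against -0.16 for all genes. The share of all genes is 12.4% higher and 27.8% lower, close to the shares of the list. The 3 higher genes were Cd3e, Cd3g and Tcrg-C2. Cd3d, Cd3e and Cd3g define the T barcodes, so their levels are not independent of the gate. Cd3e, a chain of the CD3 complex used in the gate, was at 219 CPM in Control and 605 CPM in DOPAC, and Cd3g at 324 and 531 CPM, while Cd3d stood at 504 and 586 CPM. Trac, the alpha constant gene, was at 297 CPM in Control and 441 CPM in DOPAC, Trbc1 at 439 and 506 CPM and Trbc2 at 861 and 845 CPM, all short of 1.5-fold. Tcrg-C2, a gamma constant gene, was 3.92-fold higher (2.85 to 5.50) and Trdc 5.31-fold lower (3.65 to 7.84). The other listed gamma constant genes went the other way. Tcrg-C1 was 3.33-fold lower (1.77 to 6.42) and Tcrg-C4 1.63-fold lower, with an interval that reached 1 (0.93 to 2.82). Nr4a1, an early gene of receptor signaling, was 1.64-fold lower (1.52 to 1.77) and Lat, an adaptor, 1.51-fold lower (1.42 to 1.61). Dntt, which adds bases at the junctions during receptor assembly, had 28 UMIs in Control and 6 in DOPAC. Rag1 and Rag2, the recombinase genes, had none in either library.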

How the data were processed

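Per the file headers, the authors counted UMIs per gene and barcode with Cell Ranger 7.0.1, and per the submitters' processing notes the build is GRCm38; the deposited values are raw counts. Barcodes under 500 UMIs or 200 detected genes, or with mitochondrial UMIs above 10%, were dropped. Doublets were scored with Scrublet (scanpy 1.11.5): 339 were removed in Control, and in DOPAC, where the caller marked none, the 815 highest scores (0.8% per 1000 barcodes) were removed. Control holds 9629 barcodes and 100938364 UMIs, DOPAC 10777 barcodes and 47769958 UMIs. Intervals are exact binomial or Poisson intervals, Newcombe intervals for differences of shares, and delta-method intervals for effective numbers. They cover counting error only, and where none was seen the stated limit is 3 counts of the total (figures draw exact intervals). Log2 differences and fold calls add 1 count to each sum. The estimators were tested on simulated data. V exons came from GENCODE M21. Named segments were the 5 most used of each chain per group and library, the up to 10 with the largest share differences among those with at least 20 assigned barcodes in the Cd8-positive group, Trdv and Tcrg-V segments with at least 20 UMIs, the 5 most frequent pairs, Trav11, Trav11d and Trav1, and the 25 receptor genes; of tied pairs seen once, none is named. Members and lists were chosen with earlier results of these data known. The minimum of 30 assigned barcodes for an effective number was set after the data were seen. The doublet, mitochondrial, Cd3, group, assignment, depth and fold settings were varied.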

Additional observations from a re-analysis of the deposited data

How the results depend on the processing

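The libraries differ in depth, most assignments rest on 1 UMI, and each treatment is 1 library of 4 untagged mice, and few Cd4-positive, Foxp3-positive and paired barcodes were assigned. No paired analysis was possible because each treatment has 1 library and the labels' replicate number 1 says nothing of a shared animal. Of 16 alternatives, 12 were listed at the outset and 4 were chosen after seeing the data (Trbv2 left out, barcodes with macrophage UMIs left out, the Cd8 gate on thinned counts, and Pdcd1 or Havcr2 required). The following moved a summary result, and the cause was not tested. Unthinned, the differences in Trbv detection were -3.93 points (Cd4-positive), -1.57 (Cd8-positive), -1.50 (Foxp3-positive) and -0.67 (Lef1-positive). With at least 2 UMIs for the top segment, the effective number in DOPAC Cd8-positive barcodes was 1.87, and the largest Trbv share was 72.6% there and 68.4% in the Lef1-positive group. In the Cd8-positive group Trbv16 was then at 0% in Control and 1.19% in DOPAC, the opposite order, and Trbv29 at 0% in both. Other single-segment shares moved too, mostly when thinned or at 2 UMIs. Without Trbv2, its leading segment, the effective numbers of DOPAC were 7.55 (Cd8-positive) and 12.0 (Lef1-positive), the latter above Control, which kept its leading segment. Thinned to 1000 UMIs, the Trbv distance was 72.4 points, the largest Lef1-positive share of Control 31.8%, and the gamma delta share 0.632% in Control and 0.414% in DOPAC; with at least 2 Cd3 UMIs the last was 0.931%. With no UMI minimum 16 segments were higher and 54 lower, and with doublets kept or at least 2 Cd3 UMIs 5 were lower. The share over all genes under these settings is not given, so these counts are not read as a result about the segments. The added count alone puts Rag1, with 0 UMIs in both sums, at a log2 difference of -1.15, beyond the 1.5-fold limit. The Trbv2 share of Cd8-positive barcodes stayed between 55.1% and 72.6% in DOPAC and between 0% and 11.3% in Control over 10 alternatives each, and the chance of a shared pair in DOPAC between 5.68% and 5.84% over 6. With at least 2 UMIs fewer than 50 paired barcodes were left, and likewise when thinned.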

Other observations

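Trgv2, a gamma V gene whose symbol lies outside the 4 prefixes, had 60 UMIs in the T barcodes of Control and 279 in those of DOPAC. Of these, 18 and 253 lay in Cd8-positive barcodes, where 1.68% of barcodes (0.942 to 2.75) held a UMI in Control and 4.93% (4.26 to 5.66) in DOPAC. Among Cd8-positive barcodes of DOPAC with an assigned beta segment, Trgv2 was at 7.003 CPM with Trbv2 and 21.5 CPM with another segment, without a test.

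In the Cd8-positive barcodes of Control, Trbv12-1 took 11 of 48 assigned barcodes with Gzmk and 2 of 53 with Pdcd1 or Havcr2. These are 2 of several gates, they can overlap, and whether Trbv12-1 was unevenly spread was not tested. Barcodes with Trbv12-1 had 61.8% (56.4 to 67.0) of their Trbc UMIs from Trbc1, against 31.3% (27.4 to 35.4) for Trbv12-2. Trav8d-2 lay at the other end in Control, with 1.43% (0.0362 to 7.70) from Trbc1 over 8 barcodes.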
